A study of Homo sapiens with 13 samples.

Results

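Places on the genome that the polyamide called compound 2 marked in both of its peak lists numbered 105. They were chosen by overlap. A peak of the undosed compound 2 list was kept when it shared at least 1 bp with a peak of the 400 nM compound 2 list, a 400 nM peak was kept by the same rule, and overlapping peaks that were kept were joined into 1 locus. This kept 130 of 486 undosed peaks and 118 of 923 peaks at 400 nM, out of 6064 peaks in the 4 lists of the series. Joining all overlapping peaks of both compound 2 lists gave 1188 places, of which the shared loci made up 8.84% (exact 95% interval 7.29 to 10.6%).

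The cells were H1, an established human embryonic stem cell line grown without any genetic change named in the labels. They were exposed for 24 h to compound 2 at 20 nM or at 400 nM, with 2 libraries per dose, or to compound 4 at the same doses with the same number of libraries. The other libraries of the 13 in the series were 2 each of compounds 5 and 6 and 1 input, which had no list used here. Nothing in the labels says that the libraries of a dose came from separate cultures. All libraries were of genomic DNA, captured except in the input, so the identity of the cells was not checked against expressed markers. The undosed list carried the name of the compound and no dose, so whether it stands for 20 nM, for 400 nM or for both was not stated, and each list had no value per library. Whether the undosed and the 400 nM list share libraries is thus unknown, and they cannot be taken as independent. Results on the lists therefore have no replicate error, and sequencing depth is unknown.

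Polyamides are chains of N-methylpyrrole and N-methylimidazole rings that lie in the minor groove of DNA and read the base pairs there, with imidazole telling G from C and pyrrole favouring A and T. In COSMIC-seq the chain also carries psoralen, which bonds to DNA under ultraviolet light, and biotin, by which the bonded fragments are pulled out and sequenced. A peak is a stretch that the authors listed as enriched in such fragments. Short sequences that fit a polyamide occur all over the genome, on active and silent chromatin alike. Positions below are on the human build hg19, counted from 1. Sequence and gene annotation of that build were not used here, so loci are named by chromosome band.

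The members were picked by presence in both lists, so the overlap is the rule and not a result. The rule kept 26.7% of undosed peaks (exact 95% interval 22.9 to 30.9%) and 12.8% of 400 nM peaks (10.7 to 15.1%), and these 2 shares are the background for each count of members that follows. The intervals are for counting error alone and take each peak as a separate draw. The loci covered 76.8 kb, and 57.1 kb was held by both lists, out of 274 kb in the undosed and 514 kb in the 400 nM list.

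The shared loci were mostly simple. In 77 of 105, 1 undosed peak lay on 1 peak of the 400 nM list. The other 28 joined 3 or more peaks. Of these, 17 had 2 undosed peaks and 1 at 400 nM, and 6 had 1 undosed peak and 2 at 400 nM. Loci were 576 to 1150 bp wide, with a median of 659 bp. Peak width carried no information of its own, because 127 of the 130 undosed members had the fixed width of 616 bp and all 118 members at 400 nM had 576 bp. Where several peaks of 1 list adjoined within a locus, their starts stood apart by a median of 218 bp in the undosed list (25 neighbours, 97.0 to 534 bp) and 206 bp in the 400 nM list (13 neighbours, 199 to 356 bp).

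Within a locus, the peaks of both lists sat almost on top of each other. Taking the closest undosed and 400 nM peaks of each locus, the midpoints were 37.0 bp apart at the median, with quartiles of 15.0 and 85.0 bp and a range of 1 to 433 bp. The rule alone would have let peaks of the fixed widths lie up to 595 bp apart. Midpoints lay within 20 bp of each other in 35 loci, within 50 bp in 64, within 100 bp in 88 (83.8%, exact 95% interval 75.3 to 90.3%) and within 200 bp in 98. In 33 loci the 400 nM peak lay wholly inside the undosed peak. The 400 nM midpoint was to the right of the undosed one in 53 loci and to the left in 52, so neither side was favoured. The rule sets an upper limit on these distances, and the lists may share libraries, so the distances are given as a description with no test. In the 77 loci with 1 peak per list, where no choice among peaks was needed, the median was also 37.0 bp.

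**Figure D1:**
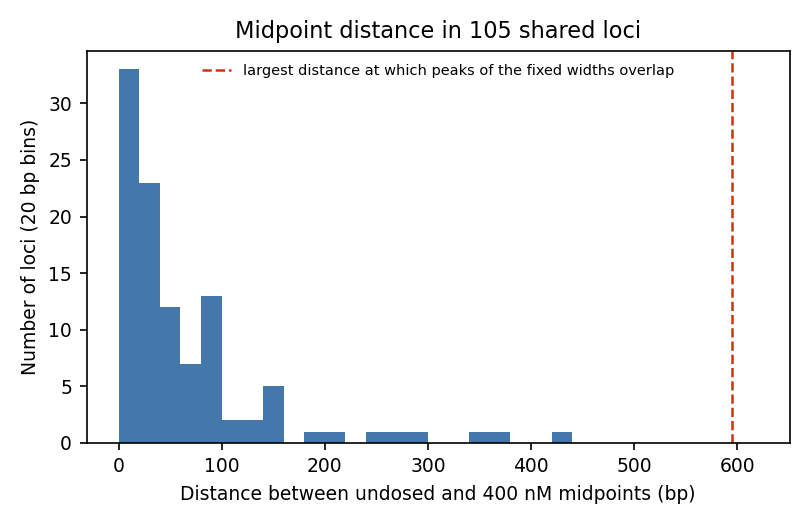
Distance in bp between the midpoints of the closest undosed and 400 nM peaks (x axis) in each of the 105 shared loci, counted in bins of 20 bp (y axis, number of loci). The dashed line marks 595 bp, the largest distance at which peaks of the fixed widths still overlap, and 88 loci lie at 100 bp or less.

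The edge of the rule was thinly filled. The loci with the fewest shared bases were at 10p11.1, with 163 bp (chromosome 10, 39094458 to 39095486) and 218 bp (chromosome 10, 39112354 to 39113327), and at 17q21.31, with 234 bp. In the last of these the undosed peak was itself 234 bp wide and lay wholly inside the 400 nM peak. Just outside the rule, an undosed peak at 20q11.21 (chromosome 20, 29832124 to 29832739, rank 178) stopped 53 bp short of the 400 nM peak ranked 152, which a neighbouring undosed peak did overlap. An undosed peak at 22q12.1 (chromosome 22, 28974944 to 28975559, rank 30) missed a 400 nM peak by 226 bp, and an undosed peak at 16p11.2 (chromosome 16, 34194840 to 34195455, rank 208) missed one by 270 bp. Of the 356 undosed peaks that were not members, 1 had a 400 nM peak within 100 bp, 6 within 1000 bp, 12 within 10000 bp and 42 within 100000 bp.

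The authors' scores, whose scale was not given, were used as ranks within a list, rank 1 being the highest score. The ranks describe the members and support no difference. The best peak of a locus had ranks of 1 to 484 of 486 in the undosed list (median 148) and 4 to 904 of 923 in the 400 nM list (median 304). Shared loci thus reached from the top of both lists to their ends.

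The locus that stood highest in both lists lay at 8p23.1 (chromosome 8, 12417488 to 12418419). It joined 3 undosed peaks with scores of 385, 180 and 130, ranked 1, 3 and 7, and 2 peaks at 400 nM with scores of 97.2 and 69.9, ranked 4 and 8. So 5 of the 20 peaks that make up the 10 highest of each list fell in this 932 bp interval. Its undosed peaks ranked 1 and 7 were 381 and 233 bp wide, and with the peak at 17q21.31 they were the only undosed members narrower than the fixed width. The midpoints of its closest peaks were 13.5 bp apart.

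The next locus, at 3p21.31 (chromosome 3, 47357790 to 47358405), had 1 peak per list, with a score of 103 and rank 13 undosed and a score of 60.7 and rank 11 at 400 nM. Its midpoints were 2.00 bp apart. The locus at 4q31.3 (chromosome 4, 152037093 to 152037716) had rank 5 undosed (score 156) and rank 34 at 400 nM (score 46.3). Both loci lay far from the centromeric bands, at 40.5 and 99.3 Mb.

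At 14q12 (chromosome 14, 29486906 to 29487939) the lists ran in step. The 3 undosed peaks began at 29486906, 29487120 and 29487324 and had ranks 10, 20 and 344. The 3 peaks at 400 nM began at 29486938, 29487139 and 29487338 and had ranks 33, 134 and 221. The scores fell from left to right in both lists, from 111 to 90.6 to 40.1 undosed and from 46.8 to 34.8 to 31.2 at 400 nM. With 6 peaks, this was the locus with the most.

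Of the remaining loci among the 10 best placed, those at 19q13.42 (chromosome 19, 55414458 to 55415236) and 17q21.31 (chromosome 17, 42053417 to 42053992) stood higher in the undosed list, with ranks 6 and 4 there and 41 and 64 at 400 nM. Those at 6p11.2 (chromosome 6, 57667696 to 57668311), 12q24.33 (chromosome 12, 130134091 to 130134709) and 9q21.13 (chromosome 9, 75738803 to 75739692) stood higher at 400 nM. Their 400 nM ranks were 10, 14 and 24 and their undosed ranks 39, 49 and 64. The locus at 12q21.32 (chromosome 12, 87879692 to 87880318) had ranks 46 and 57. Of these 10 loci, 8 lay in light bands, 1 in a band of stain 100 and 1 in a band of stain 50.

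The other loci joined from most peaks were at 1q24.1, 2q31.2 and 5q21.3. The locus at 1q24.1 (chromosome 1, 165551761 to 165552814) had 3 undosed peaks ranked 54, 78 and 138 and 2 peaks at 400 nM ranked 106 and 403. That at 2q31.2 (chromosome 2, 180261969 to 180263086) was the reverse in number, with 2 undosed peaks ranked 143 and 424 and 3 peaks at 400 nM ranked 30, 50 and 456. That at 5q21.3 (chromosome 5, 107045157 to 107046177) had 2 of each, ranked 18 and 21 undosed and 273 and 516 at 400 nM. The 28 loci of 3 or more peaks had a median best rank at 20.1% of the undosed and 28.2% of the 400 nM list, counted from the top, against 32.7% and 34.5% for the 77 loci with 1 peak per list. A locus with several peaks in a list took the best of their ranks, which favours a better rank by construction, and the gap was not tested.

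The share of members was higher among peaks that overlapped a neighbour of their own list than among peaks that stood alone. In the undosed list 48 of 123 overlapping peaks were members (39.0%, exact 95% interval 30.4 to 48.2%) against 82 of 363 lone peaks (22.6%, 18.4 to 27.2%). In the 400 nM list the counts were 25 of 101 (24.8%, 16.7 to 34.3%) and 93 of 822 (11.3%, 9.23 to 13.7%). Neighbouring peaks can be kept by the same peak of the other list, so they are not independent, and this difference was not tested. With overlapping peaks of each list merged first, 105 of 422 undosed regions (24.9%) and 105 of 871 regions at 400 nM (12.1%) were shared.

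Across the 105 loci the rank correlation (Spearman's rho) of the best undosed with the best 400 nM rank was 0.251, and it was 0.309 in the 90 loci over 5 Mb from centromeric bands. Without the 10 best placed loci, which were picked by these same ranks, rho was 0.0656 in the remaining 95. Leaving out the loci that stand high in both lists favours a lower rho by construction, so this fall does not show that the relation rests on them. All loci share the same cell line and build, so rho is a description. Of the loci, 53 were in the upper 50% of both lists, 25 in the upper 50% of the undosed list alone, 18 in that of the 400 nM list alone and 9 in neither. Among the highest peaks, 7 of the 10 highest undosed peaks and 4 of the 10 highest peaks at 400 nM were members, beside 26.7% and 12.8% of the whole lists. The 8p23.1 locus alone gave 3 of these undosed and 2 of these 400 nM peaks, so they are not separate places, and no test was made. Among the 25 highest, members numbered 15 and 11.

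**Figure D2:**
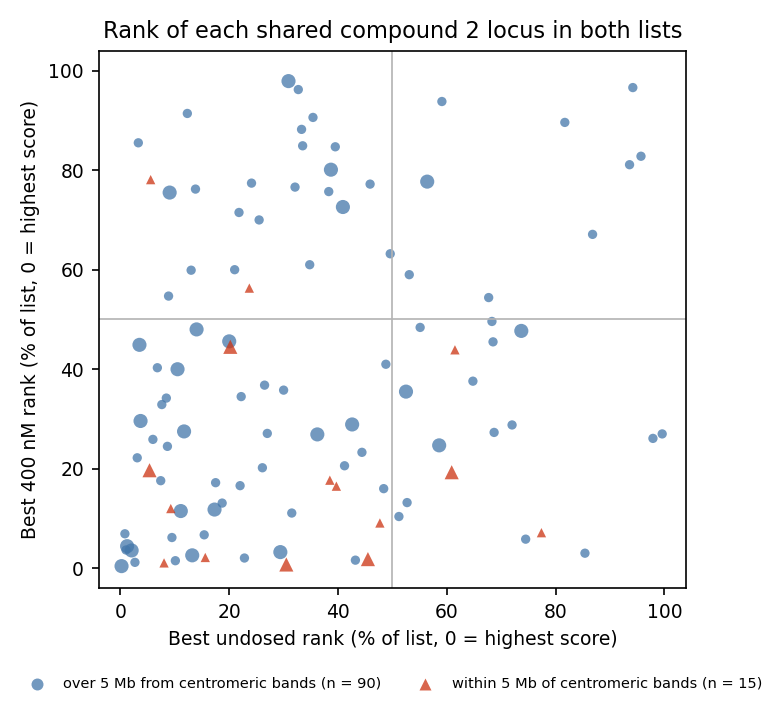
Best rank of each of the 105 shared loci in the undosed list (x axis) and in the 400 nM list (y axis), as a percentage of the list's length with 0 at the highest score. Large symbols are loci of 3 or more peaks, triangles are the 15 loci within 5 Mb of centromeric bands, and grey lines mark 50%, with 53 loci at 50% or less on both axes.

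The top of the 400 nM list held several peaks with no undosed partner. Its peaks ranked 1, 2, 3, 5, 6 and 9, in 10p11.1, Yq12, 18q21.2, 9q21.12, 1q42.11 and 13q31.3, were not members. In the undosed list the peaks ranked 2, 8 and 9, in 20p11.21, 3p22.1 and 6q23.3, were not members. These bands were named because they complete the 10 highest peaks of each list, after their values were seen.

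Some shared loci stood far higher in one list than in the other. The locus at 14q24.2 (chromosome 14, 72010532 to 72011147) had rank 16 undosed (score 102) and rank 789 at 400 nM (score 23.7). Those at Xp11.23 (chromosome X, 47830533 to 47831148) and 4p12 (chromosome 4, 46119496 to 46120249) had undosed ranks of 60 and 27 and 400 nM ranks of 844 and 721. In the other direction, the locus at 5q33.2 (chromosome 5, 155442453 to 155443106) had rank 28 at 400 nM (score 48.0) and rank 415 undosed (score 38.1). The locus at 6p21.33 (chromosome 6, 31056824 to 31057439) had ranks 249 at 400 nM and 484 undosed, and a further locus at 14q12 (chromosome 14, 28036816 to 28037438) had 241 and 476. Despite these gaps in rank, midpoints were 4.00 to 158 bp apart in the 6 loci. Because the lists differ in length and the undosed list has no stated dose, these ranks can show neither a change with dose nor the lack of one.

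Shared loci were spread over 23 chromosomes, all but Y, where the 400 nM list had 4 peaks and the undosed list none. Chromosome 2 had 11 loci, chromosome 1 had 10 and chromosome 4 had 8. Chromosomes 3, 7, 10 and 12 had 7 each. Chromosomes 5 and 6 had 5 each, chromosomes 9, 13, 14, 17 and 20 had 4 each, and chromosomes 8, 11, 15 and X had 3 each. Chromosome 18 had 2, and chromosomes 16, 19, 21 and 22 had 1 each. Per 100 Mb of chromosome, chromosome 20 held most, with 6.35 loci, followed by chromosomes 12 (5.23), 10 (5.16) and 17 (4.93), and chromosome 16 held fewest among those with loci, with 1.11. Several loci of chromosomes 10, 12 and 20 were near neighbours, in 10p11.1, 12q12 and 20q11.21, and each was counted singly. Counts this small leave wide errors, and no chromosome was tested.

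Against the background of 26.7% and 12.8%, the share of members differed in direction between the lists on chromosome 10. There 8 of 19 undosed peaks were members (42.1%, exact 95% interval 20.3 to 66.5%) but only 9 of 123 peaks at 400 nM (7.32%, 3.40 to 13.4%). Most of these members lay in 10p11.1 and 10q11.21. In 10p11.1 they were 5 of 6 undosed peaks and 5 of 52 at 400 nM. In 10q11.21 they were 1 of 1 and 2 of 18. The high undosed share thus rests largely on these bands. The low share at 400 nM does not, because the 400 nM share in each band was above the 7.32% of the whole chromosome. On chromosome X, 4 of 11 undosed peaks (36.4%, 10.9 to 69.2%) and 3 of 5 peaks at 400 nM (60.0%, 14.7 to 94.7%) were members. On chromosome 16, 1 of 9 undosed peaks and 1 of 32 peaks at 400 nM were members, with intervals of 0.281 to 48.2% and 0.0791 to 16.2%. All of these intervals held the background share but that of the 400 nM peaks on X, which lay above it and rests on 5 peaks. These chromosomes were singled out after their values were seen.

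**Figure D3:**
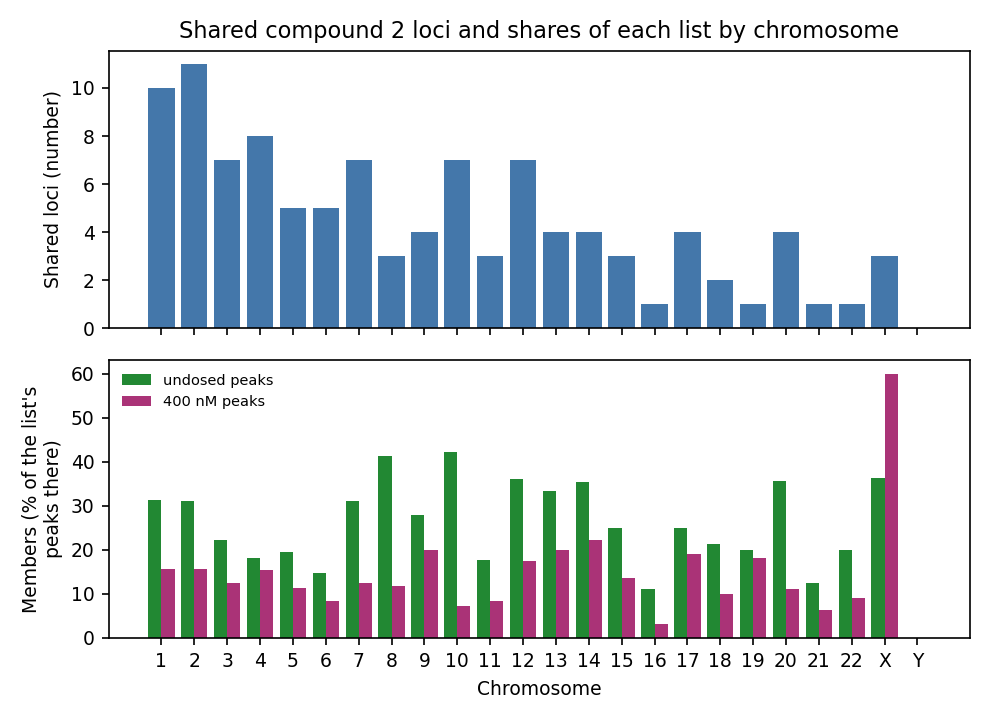
Number of shared compound 2 loci on each chromosome (upper panel) and the percentage of the undosed and of the 400 nM peaks of that chromosome that were members (lower panel). Loci range from 11 on chromosome 2 to 1 on chromosomes 16, 19, 21 and 22 and 0 on Y, and the tall bar of 400 nM peaks on X stands for 3 of 5 peaks.

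Centromeres are flanked by long arrays of satellite repeats, and compound 2 peaks at 400 nM crowded beside that of chromosome 10. In 10p11.1, 5 of 6 undosed peaks but 5 of 52 peaks at 400 nM were members, which made 4 loci. In 10q11.21, 1 of 1 undosed peak and 2 of 18 peaks at 400 nM were members, and in 20q11.21 the counts were 2 of 3 and 2 of 22. Taking these 3 bands together, 8 of 10 undosed peaks (80.0%, exact 95% interval 44.4 to 97.5%) and 9 of 92 peaks at 400 nM (9.78%, 4.57 to 17.8%) were members. The 3 bands were singled out as crowded in these same lists, and neighbouring peaks there are not separate draws. Their shares are thus set beside the background of 26.7% and 12.8% as a description only. Outside the 3 bands the shares were 25.6% and 13.1%. Within the 3 bands most undosed peaks had a 400 nM partner, while most 400 nM peaks had none. These bands held 10 of 486 undosed and 92 of 923 peaks at 400 nM, and the part of this crowding in the shares was not tested.

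The 4 loci of 10p11.1 lay within 39094458 to 39126477 on chromosome 10. They are described, with those of the other crowded bands, after their values were seen. The best placed of them (39125328 to 39126477) was ranked 148 and 421 undosed and 7 at 400 nM, and its closest midpoints were 2.00 bp apart. The others had best undosed ranks of 232, 296 and 376 and best 400 nM ranks of 84, 178 and 66. All of them were thus higher in the 400 nM than in the undosed list as a share of the list. The locus in 10q11.21 (chromosome 10, 42790586 to 42791623) had ranks 221 undosed and 17 and 552 at 400 nM. Those of 20q11.21 (chromosome 20, 29635823 to 29636577 and 29832430 to 29833368) had ranks 76 and 193 undosed and 20 and 152 at 400 nM. The offsets in this group of 7 loci were uneven: 2.00 and 10.0 bp in 2 of the 10p11.1 loci, 378 and 433 bp in the others, 208 bp in 10q11.21, and 159 and 343 bp in 20q11.21.

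Within 5 Mb of the centromeric bands lay 15 of the 105 loci (14.3%, exact 95% interval 8.22 to 22.5%). The same held for 34 of 356 undosed peaks that were not members (9.55%, 6.70 to 13.1%) and for 139 of 805 such peaks at 400 nM (17.3%, 14.7 to 20.1%). The share of the loci lay between these and its interval covered all of the second and most of the first. Inside the centromeric bands themselves were 5 loci (4.76%, 1.56 to 10.8%), 4 in 10p11.1 and 1 in Xq11.1 (chromosome X, 62845935 to 62846896), against 3 of 356 undosed and 56 of 805 peaks at 400 nM that were not shared. The 15 loci stood at a median of 30.5% of the undosed list, as did the 90 others, and at 16.5% of the 400 nM list against 35.6% for the others. Among the 15 were the 7 loci of the 3 crowded bands, at 0.758 to 19.3% of the 400 nM list. The rest of the 15 ran from 1.08 to 78.1%, so the lower median is not shown to be a trait of closeness to centromeres. At the other end of the arms, 13 loci (12.4%, 6.76 to 20.2%) were within 10 Mb of a chromosome end, beside 10.7% of unshared undosed and 12.7% of unshared 400 nM peaks.

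Stained chromosome bands are a coarse guide to the setting of a locus. Light bands are richer in genes and in G and C, and dark bands are richer in A and T and poorer in genes. Of the 105 loci, 40 lay in light bands (38.1%, exact 95% interval 28.8 to 48.1%), which make up 42.2% of the length of these chromosomes. Bands of the darkest stain (100) held 22 loci (21.0%, 13.6 to 30.0%) and make up 16.1% of the length, and those of stain 75 held 15 (14.3%, 8.22 to 22.5%) against 13.1% of the length. Bands of stain 50 and 25 held 15 and 8. Unshared peaks had much the same shares in light bands, with 39.6% of undosed and 39.3% of 400 nM peaks, and in the darkest, with 21.1% and 22.4%. In stain 75 they stood at 20.5% and 12.7%. The intervals of the loci covered the shares of unshared peaks in each class but the centromeric bands, where 0.843% of unshared undosed peaks lay below it. Lengths included unsequenced stretches.

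**Figure D4:**
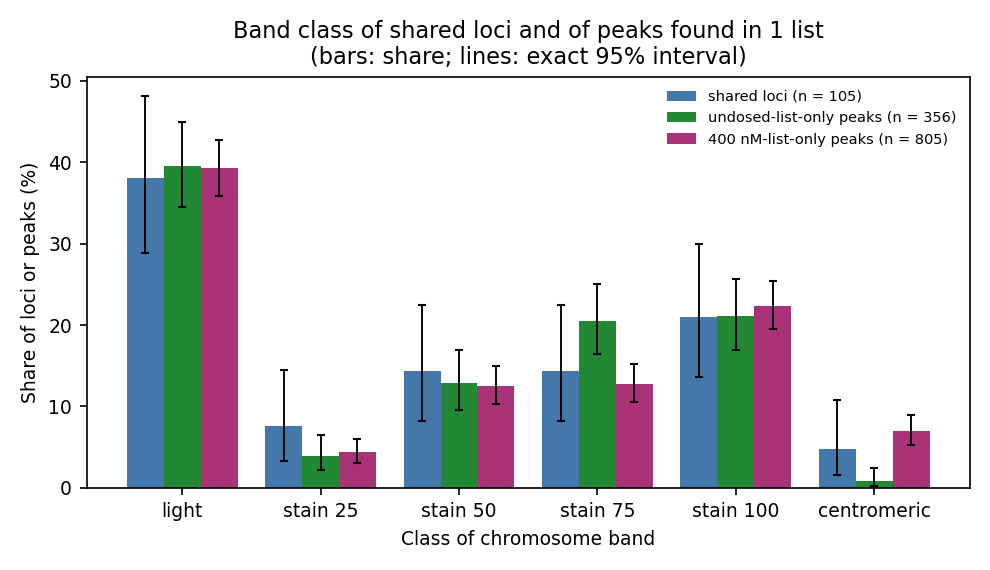
Share in percent (y axis) of the 105 shared loci, the 356 undosed peaks and the 805 peaks at 400 nM that were found in 1 list only, by class of chromosome band (x axis), with exact 95% intervals as lines. The 3 groups lie close together in light bands, at 38.1%, 39.6% and 39.3%. They lie further apart in stain 75, at 14.3%, 20.5% and 12.7%, and in centromeric bands, at 4.76%, 0.843% and 6.96%.

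In the undosed list the share of members was 24.6% in light bands, 44.0% (11 of 25 peaks) in stain 25, 31.3% in stain 50, 18.9% in stain 75, 27.2% in stain 100 and 70.0% (7 of 10) in centromeric bands. In the 400 nM list it was 12.5%, 18.6%, 15.8%, 12.8%, 12.2% and 9.68% in the same order. Variable and stalk bands held no member among 4 undosed peaks and 15 peaks at 400 nM. No difference between classes was tested. Loci in light bands stood at a median of 24.0% of the undosed and 25.3% of the 400 nM list, and loci in dark bands of stain 75 or 100 at 30.0% and 40.3%.

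Most loci lay far from each other. The nearest other locus on the chromosome was 10.4 Mb away at the median (101 loci on chromosomes with more than 1, quartiles 3.07 and 22.4 Mb). Another locus within 1 Mb was found for 11 of 105 (10.5%, exact 95% interval 5.35 to 18.0%). The closest were 2 loci of 12q12 that began at 40106296 and 40107278 on chromosome 12 and whose midpoints were 1.13 kb apart. A further locus of 12q12 (39750054 to 39750669) lay 356 kb from the nearer of them. The 4 loci of 10p11.1 came next, with 3.67 to 14.2 kb between neighbours, then the 2 of 20q11.21 at 197 kb and 2 of 1p22.2 at 790 kb. These groups account for all 11 loci.

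Compound 4 is another polyamide that was mapped in the same way, and its peaks serve as the comparison. None of the 105 loci overlapped a 400 nM compound 4 peak (exact 95% interval 0 to 3.45%), and the nearest such peak was 13.5 kb away. A limit set by 3 counts would be 2.86%. The background was low as well, at 0.206% of undosed and 0.325% of 400 nM compound 2 peaks. The median distance from a locus to a 400 nM compound 4 peak was 775 kb. With the undosed compound 4 list, which held 3074 peaks, 7 loci overlapped (6.67%, exact 95% interval 2.72 to 13.3%), where 10.5% of all undosed and 1.84% of all 400 nM compound 2 peaks did. With each list cut to its best 50% by score, 2 of 53 loci did (3.77%, 0.460 to 13.0%).

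These 7 loci were spread over both lists and over 6 chromosomes. That at 8p23.1 overlapped the undosed compound 4 peak ranked 1325 and that at 20q11.21 (29635823 to 29636577) the one ranked 1449. The locus of 12q12 at 39750054 to 39750669, ranked 115 undosed and 520 at 400 nM, overlapped the compound 4 peak ranked 635. Those at 20p12.2 (chromosome 20, 10848731 to 10849646) and 3q13.33 (chromosome 3, 120759616 to 120760248) overlapped compound 4 peaks ranked 2236 and 2333. The remaining loci, at 9q33.3 and 10q21.1, overlapped those ranked 2918 and 996. The highest compound 4 peak on any of the 7 was thus ranked 635 of 3074.

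Counted by peak, the comparison with compound 4 ran in opposite directions in the lists. Of undosed members, 9 of 130 overlapped an undosed compound 4 peak (6.92%, exact 95% interval 3.21 to 12.7%), below the 42 of 356 undosed peaks that were not members (11.8%, 8.64 to 15.6%) and the background of 10.5%. Of 400 nM members, 8 of 118 did (6.78%, 2.97 to 12.9%), above the 9 of 805 that were not members (1.12%, 0.512 to 2.11%) and the background of 1.84%. The intervals overlapped in the undosed list and did not in the 400 nM list. A 400 nM peak that is a member lies on an undosed compound 2 peak by the rule, which is therefore not independent of this count and no test was made.

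**Figure D5:**
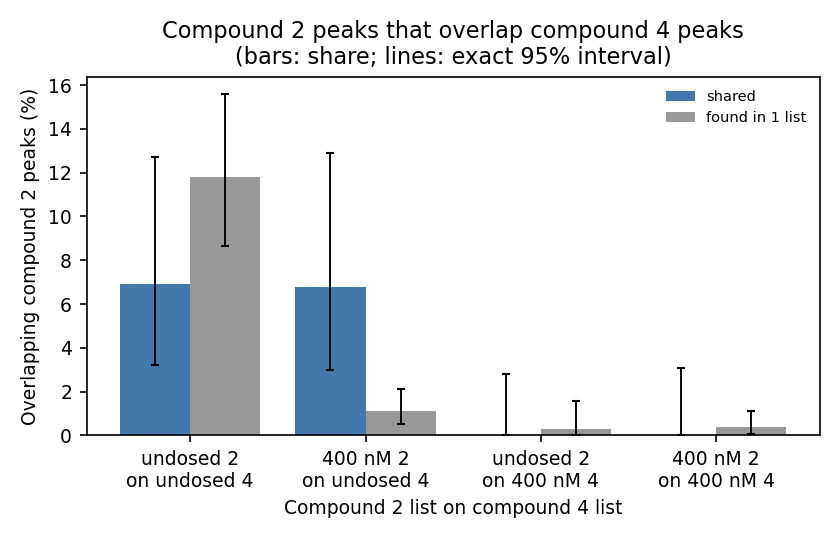
Percentage of compound 2 peaks that overlapped a compound 4 peak (y axis) for shared peaks and for peaks found in 1 list, for each compound 2 list on each compound 4 list (x axis), with exact 95% intervals as lines. Shared peaks stood at 6.92% and 6.78% on the undosed compound 4 list, against 11.8% and 1.12% of unshared peaks, and at 0 on the 400 nM compound 4 list.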

How the data were processed

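Genomic DNA of H1 cells was sequenced in 13 libraries, 4 of them captured with compound 2 and 1 an input. Reads were handled with CASAVA 1.8.2, Bowtie 1.0 and HOMER on hg19, per the submitters' processing notes. How peaks were called, whether libraries were pooled and how the input was used is not given in the sources used here. Each deposited list gives the interval of a peak and its score, whose scale the authors did not give and which served here as a rank. Starts count from 0 in the files.

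Overlap meant at least 1 bp. Overlapping members were joined, each locus took its best rank per list, and the closest undosed and 400 nM peaks gave its offset. Bands, which served for hg19 lengths too, came from circlize 0.4.16 in R 4.3.3, and a locus took the band of its midpoint. Shares have exact (Clopper-Pearson) 95% intervals, and 3 counts set the limit behind a count of 0. No test was made, because the overlap that chose the members uses both lists and each arm has 1 list. The members, lists and bands were chosen with earlier results of these data known. Loci were named by rule: the 10 with the smallest summed share of rank, the 5 with most peaks, those on compound 4 peaks (the 5 best placed in full), the 3 with the largest rank gap each way and those nearest the edge of the rule. The overlap rule was checked on simulated lists with planted pairs and found all of them. The alternatives tried were midpoints within 1 kb, peaks sharing 50% of both widths, the best 50% of either list, 3 bands left out, peaks merged first, and members joined across 1 kb. Planned counts of sequence motifs, GC and genes were not made, since hg19 sequence and annotation were not used here. Python 3.11.15 with numpy 2.4.6, pandas 2.3.3, scipy 1.17.1 and matplotlib 3.10.9 was used.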

Additional observations from a re-analysis of the deposited data

How the results depend on the processing

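Across 5 results and 6 alternatives, 20 of 21 values stayed within the 95% limits of the reported value or, for the number of loci, within 1.5 times. The exception was the number of shared loci when each list was cut to its best 50%, which was 53 against 105. The cut left 243 undosed peaks and 462 peaks at 400 nM, and what lowered the number was not tested. The shares stayed between 24.7% and 27.4% of undosed and between 12.0% and 13.3% of 400 nM peaks, the median offset between 34.5 and 37.0 bp, and the share of loci on undosed compound 4 peaks between 3.77% and 6.93%. Other numbers of loci ran from 98, without the 3 crowded bands, to 106, with midpoints within 1 kb. Joining members within 1 kb gave 104. Alternatives for sequence motifs, GC and genes were not run. No paired analysis was possible because the lists carry no replicate numbers and no values per library, and leaving out a library was not possible for the same reason. Depth is unknown, so whether a place missing from a list was too shallow to be called cannot be told from the lists.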
